A study of Saccharomyces cerevisiae and Kluyveromyces lactis with 95 samples.

Results

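The enzymes of gluconeogenesis and the glyoxylate cycle were followed here as 10 named genes of *Saccharomyces cerevisiae* and their orthologs in *Kluyveromyces lactis*, across every strain and treatment of a study of PKA inhibition. The 10 genes were FBP1, PCK1, ICL1, ICL2, MLS1, MDH2, ACS1, CIT2, IDP2 and SFC1, chosen by name, though with earlier results of these data known. They are 10 of the 6600 genes counted in *S. cerevisiae*, and 10 of the 5534 genes counted in *K. lactis* carried their names. The *K. lactis* row for CIT2 is also the ortholog of CIT1, and the row for IDP2 is also that of IDP3. All 10 genes passed the filter on low counts in both species.

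The study grew yeast in YPD, divided each culture, and added 3 µM of the ATP analog 1-NM-PP1 or DMSO for 50 min before 3′ RNA sequencing. PKA-AS strains carried gatekeeper alleles in every gene for a PKA catalytic subunit, which let 1-NM-PP1 into the ATP pocket. PKA-WT strains carried the natural alleles and served to show effects of the compound without PKA inhibition. In *S. cerevisiae* each allele state was combined with no deletion, with loss of MSN2 and MSN4 (ΔMsn2/4), with loss of RPH1 and GIS1 (ΔRph1/Gis1), or with loss of all of them. These 8 strains had 4 cultures per treatment in the PKA-AS background and 3 in the PKA-WT background, 56 cultures in all. In *K. lactis* the PKA-AS strain was combined with loss of the MSN2/4 ortholog, of the RPH1/GIS1 ortholog, or of both, with 4 cultures per treatment (3 for the last), and the PKA-WT strain without deletion had 2 DMSO cultures and 3 treated ones, 35 cultures in all. The *S. cerevisiae* PKA-AS base strain also held an NHP6A-IRFP nuclear marker, according to the methods of the study. Cultures are named by their replicate labels, 1 to 4 or 2017.

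Gluconeogenesis builds glucose 6-phosphate from oxaloacetate, with PCK1 (phosphoenolpyruvate carboxykinase) and FBP1 (fructose-1,6-bisphosphatase) catalysing the steps that glycolysis cannot run backwards. The glyoxylate cycle, in which ICL1 (isocitrate lyase) and MLS1 (malate synthase) bypass the decarboxylations of the TCA cycle, supplies that oxaloacetate from acetyl-CoA when cells live on ethanol or acetate. In *S. cerevisiae* these genes are known to be repressed by glucose and activated through the factors Cat8 and Sip4 at carbon source response elements, and PKA is known to act on the Msn2 and Msn4 stress factors, which bind the stress response element.

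Carbon source response elements are shown because they are the sites known for the regulation of these genes by carbon source. The motif CCNNNNNNCCG was searched on both strands in the 700 bases before the start codon, in genome build R64. At least 1 match lay in 8 of the 10 members and in 28.6% of 5999 promoters of that length. ICL2 and CIT2 held none. The match nearest the start codon of each gene other than MDH2 is printed below on the strand of the gene, 5′ to 3′, with bases that belong to any match in capitals.
FBP1, chrXII:875205-875233: gCGGTCGTGCGGACACCCGGagttatgcg
PCK1, chrXI:630781-630809: atggataggCGGATAAAGGGcccaaacag
ICL1, chrV:287293-287321: cccaggtttCCATTCATCCGagcgatcac
MLS1, chrXIV:405908-405936: CCGGCGAGCCGGCAGTCGGGccgaggttc
ACS1, chrI:45224-45252: gaattgccgCCGAGCCTCCGatgccatta
IDP2, chrXII:504279-504307: atgtcattgCCGGTGGTCCGaaaatcggc
SFC1, chrX:609273-609301: agcctagtcCCGGTAAACCGcaaacggac
PCK1, MLS1, IDP2 and SFC1 lie on the plus strand, and the other members on the minus strand.

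MDH2 held 4 carbon source matches, all within the stretch below, and 4 matches of the stress response element CCCCT, of which 2 are in it. Both motifs are in capitals, and the stretch is shown because MDH2 had the largest called LFC of the members in *S. cerevisiae*.
MDH2, chrXV:83240-83381: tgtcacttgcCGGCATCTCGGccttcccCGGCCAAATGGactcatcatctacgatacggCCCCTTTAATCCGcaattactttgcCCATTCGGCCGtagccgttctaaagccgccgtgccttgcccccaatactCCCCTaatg
A stress element overlaps a carbon source element in this stretch, at 402 to 398 and 400 to 390 bases before the start. In MLS1 a stress element, at 458 to 454 bases, lies wholly within a carbon source element, at 458 to 448 bases.
MLS1, chrXIV:405891-405920: agcggttgtCCCCTTTCCCGGCGAGCCGGC
CCCCT matched in 6 of the 10 members (FBP1, MLS1, MDH2, ACS1, CIT2 and SFC1) and in 44.5% of all promoters, the Rph1/Gis1 core AGGGAT in 2 (FBP1 and ICL2) and in 21.1%, and the Hap core CCAAT in all 10 and in 76.9%. These matches are a description of letters, and they do not show that a factor binds.

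Each library of *S. cerevisiae* held between 188289 and 4715139 counts on genes, with a median of 2062219, and each of *K. lactis* between 815372 and 4117520, with a median of 2405976. The lowest was treated culture 3 of the PKA-AS ΔMsn2/4 strain, and the next lowest, treated culture 3 of the PKA-WT strain with all 4 genes deleted, held 511233. Counts of the deleted genes were a limited check, since 3′ reads can fall outside a deleted part. MSN2 had 0 to 4 counts per library where deleted and 1 to 22 elsewhere, and MSN4 had 0 to 69 (median 8) against 8 to 198 (median 33). GIS1 had 0 to 26 counts (median 5) where deleted and 0 to 60 (median 7) elsewhere, and RPH1 is listed at 0 in all 59 libraries used, so its deletion could not be checked. The *K. lactis* MSN2/4 ortholog had 0 to 38 counts (median 5) against 3 to 129 (median 26), and the RPH1/GIS1 ortholog 7 to 40 (median 13.5) against 9 to 86 (median 35). Levels below are CPM (counts per 1e6 counts in the library) after TMM scaling within a species, and a gene was called changed at an adjusted p under 0.01 in edgeR's quasi-likelihood test over all genes. Shares of all genes below are for these calls. No share was taken for counts at an unadjusted p under 0.05, by DESeq2 or in other fits.

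In the *S. cerevisiae* PKA-AS strain without deletion, 1-NM-PP1 raised MDH2, ICL2, IDP2, PCK1 and SFC1 and lowered CIT2. These were 5 of 10 members higher and 1 lower, against 20.7% of all 5779 tested genes higher and 21.2% lower. The median log2 fold change (LFC) of the 10 members was 1.92, and that of all genes 0.005. FBP1, ICL1, MLS1 and ACS1 did not pass the threshold.

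The gluconeogenic genes were scarce in YPD. PCK1 (YKR097W, chrXI:631152-632801, plus strand), which makes phosphoenolpyruvate from oxaloacetate, stood at 1.50, 3.47, 1.49 and 0.764 CPM in DMSO cultures 1, 2, 3 and 2017, and at 6.996, 10.6, 8.33 and 7.04 CPM in their treated counterparts. Every treated culture lay above every DMSO culture. The LFC was 2.15 ± 0.60 (SE, n = 4 per treatment), with an adjusted p of 0.00217, which became 0.0108 without DMSO culture 3 and 0.0113 without the 2017 cultures. FBP1 (YLR377C, chrXII:873746-874792, minus strand) had 3, 0, 3 and 0 counts in DMSO and 1, 7, 3 and 4 counts after treatment, in the same order. These groups overlapped, and at 6 against 15 counts in all the ratio of 2.71, scaled for depth, had an exact 95% counting interval from 0.994 to 8.53. The fitted LFC of FBP1 was 1.43 ± 0.93 (adjusted p = 0.197), so a change of FBP1 was not detectable at this depth.

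Of the glyoxylate cycle enzymes, MDH2 moved most. MDH2 (YOL126C, chrXV:81787-82920, minus strand) is the cytosolic malate dehydrogenase that turns malate from the cycle into oxaloacetate for PCK1. It stood at 39.1, 41.0, 59.0 and 61.9 CPM in DMSO and at 319, 493, 404 and 596 CPM with 1-NM-PP1. The lowest treated culture was well above the highest DMSO culture. The LFC was 3.17 ± 0.37 (SE, n = 4), with an adjusted p of 6.51e-10.

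ICL1 (YER065C, chrV:285241-286914, minus strand) cleaves isocitrate into glyoxylate and succinate. Its DMSO cultures stood at 34.1, 35.3, 30.1 and 42.8 CPM and the treated ones at 48.5, 43.2, 43.6 and 52.8 CPM. The groups did not overlap, though they came close, and the LFC of 0.41 ± 0.33 did not pass (adjusted p = 0.315). MLS1 (YNL117W, chrXIV:406358-408022, plus strand) condenses glyoxylate with acetyl-CoA. It had 1.00, 1.73, 0.596 and 3.06 CPM in DMSO and 5.50, 3.52, 2.94 and 7.04 CPM after treatment. The 2017 DMSO culture lay inside the treated range, and the LFC of 1.69 ± 0.70 did not pass (adjusted p = 0.0389).

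CIT2 (YCR005C, chrIII:120946-122328, minus strand) encodes the peroxisomal citrate synthase and is the textbook target of the retrograde pathway. It was the member that fell, from 43.6, 34.7, 18.5 and 38.2 CPM to 10.99, 4.52, 7.35 and 9.39 CPM. No treated culture reached the lowest DMSO culture. The LFC was -2.05 ± 0.44 (SE, n = 4), with an adjusted p of 0.000113.

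The remaining members feed or connect the cycle. ICL2 (YPR006C, chrXVI:567269-568996, minus strand), a mitochondrial 2-methylisocitrate lyase despite its name, went from 38.1, 41.6, 36.1 and 50.4 CPM to 130, 133, 127 and 144 CPM. Its 4 treated cultures were close together and far above the DMSO cultures, with an LFC of 1.69 ± 0.21 (adjusted p = 2.26e-09). IDP2 (YLR174W, chrXII:504591-505829, plus strand) is the cytosolic NADP-dependent isocitrate dehydrogenase. It stood at 17.04, 7.52, 6.86 and 10.7 CPM in DMSO and 69.0, 31.2, 43.1 and 54.6 CPM after treatment. Culture 1 was the highest under both treatments, the groups did not overlap, and the LFC was 2.24 ± 0.43 (adjusted p = 1.9e-05).

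SFC1 (YJR095W, chrX:609773-610741, plus strand) carries succinate into mitochondria in exchange for fumarate. It had 1.00, 1.16, 1.49 and 1.53 CPM in DMSO and 5.50, 9.55, 8.82 and 6.45 CPM after treatment. These ranges were apart, with an LFC of 2.5 ± 0.59 (adjusted p = 0.000365). ACS1 (YAL054C, chrI:42881-45022, minus strand), the acetyl-CoA synthetase of cells on nonfermentable carbon, had 0, 0, 1 and 0 counts in DMSO and 3, 2, 5 and 3 counts after treatment. All treated cultures were higher, the ratio of summed counts was 14.1 with an exact 95% interval from 2.12 to 599, and the gene did not pass the threshold (adjusted p = 0.0202), though it did in a fit of these groups alone (0.00689).

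**Figure D1:**
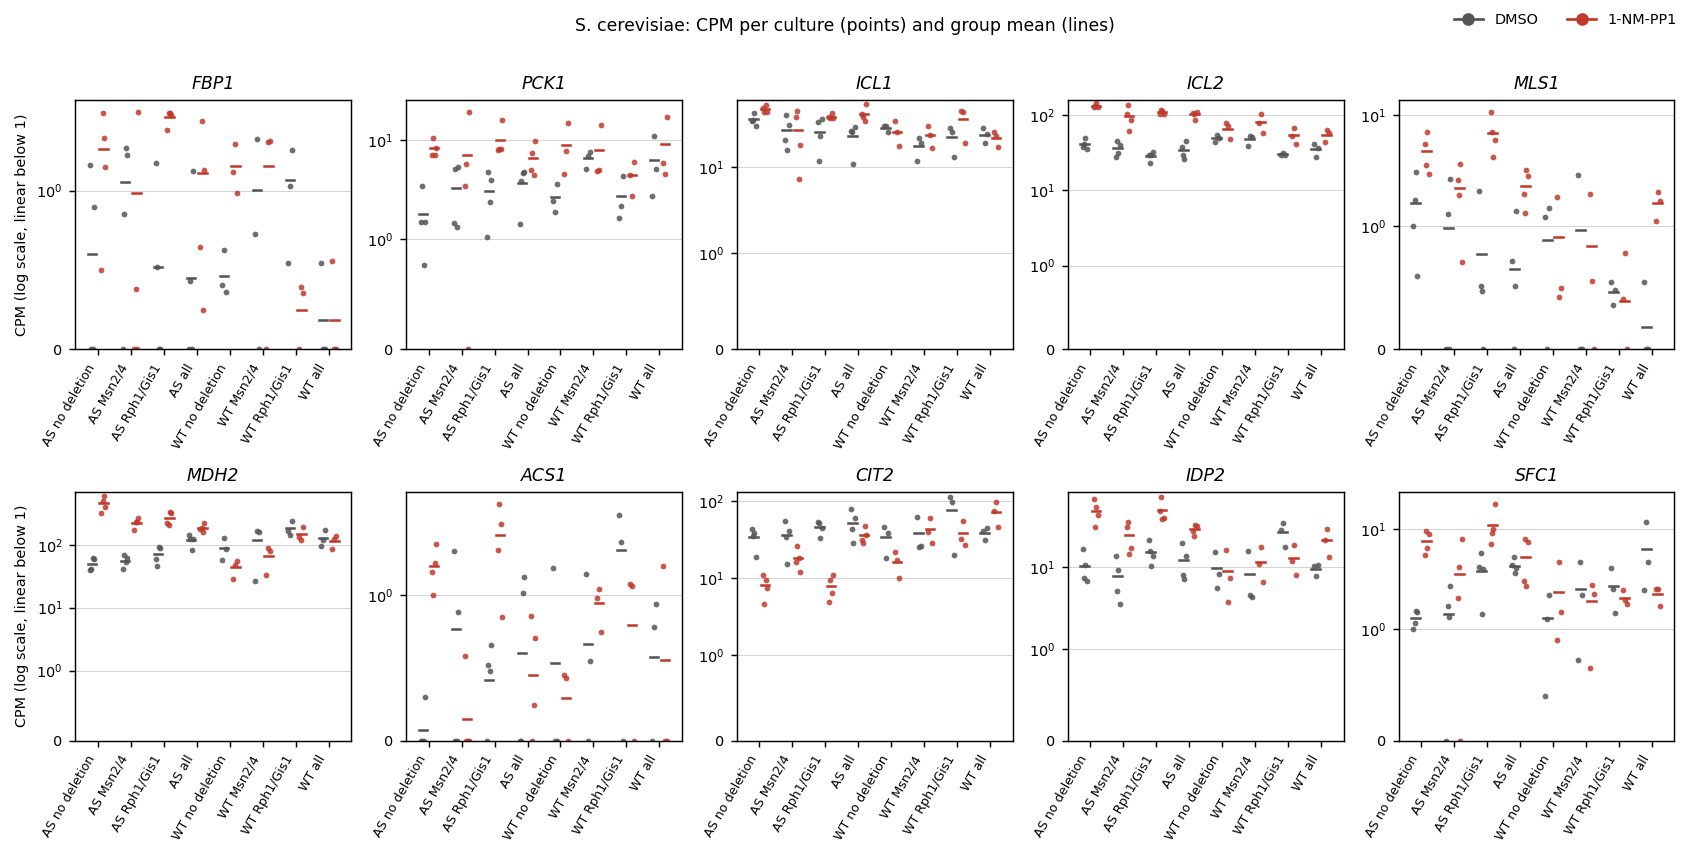
CPM of the 10 genes in each *S. cerevisiae* culture, by strain, on a log axis that is linear below 1. Points are cultures, the short line is the group mean, DMSO is grey and 1-NM-PP1 red. In the PKA-AS strain without deletion the treated cultures of MDH2 sit between 319 and 596 CPM, above the DMSO cultures at 39.1 to 61.9, while FBP1 stays below 4 CPM in the 4 PKA-AS strains.

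PKA-WT cultures show what 1-NM-PP1 did without the sensitive alleles. None of the 10 members was called in any of the 4 PKA-WT strains by edgeR, against 0.138% of genes without deletion, 0.242% in ΔMsn2/4, 0.138% in ΔRph1/Gis1 and 0.675% with all 4 genes deleted. At an unadjusted p under 0.05 there were 3, 2, 3 and 3 members in these strains, and DESeq2 called 0 in each. Without deletion, MDH2 stood at 56.3, 127 and 84.3 CPM in DMSO cultures 1, 2 and 3 and at 28.1, 47.4 and 55.8 CPM with 1-NM-PP1. The treated cultures were all below the DMSO cultures, if barely, but the LFC of -1.03 ± 0.40 (n = 3) did not pass (adjusted p = 0.468). PCK1 had 2.41, 1.88 and 3.62 CPM in DMSO and 4.52, 7.68 and 14.8 CPM with 1-NM-PP1. These groups did not overlap either, with an LFC of 1.71 ± 0.64 (adjusted p = 0.404). CIT2 had 46.2, 18.2 and 38.7 CPM against 21.7, 17.1 and 9.87 CPM, which overlap. ICL2 had 43.4, 54.6 and 49.6 CPM against 79.2, 70.9 and 48.9 CPM, with an LFC of 0.43 ± 0.23 (adjusted p = 0.641). In ΔMsn2/4 and in ΔRph1/Gis1 the treated cultures of ICL2 were all above the DMSO ones. The LFCs were 0.75 ± 0.24 in ΔMsn2/4 (adjusted p = 0.19) and 0.83 ± 0.24 in ΔRph1/Gis1 (adjusted p = 0.122), where it passed with library totals as scaling (0.0057). With all 4 genes deleted its log2 CPM changed by 0.101, 1.15 and 0.644 from DMSO to treated cultures 1, 2 and 3.

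The response in PKA-AS was tested against that in PKA-WT, as the difference of the LFCs. It was larger in PKA-AS for MDH2 (4.20 ± 0.55, adjusted p = 2.57e-08), ICL2 (1.26 ± 0.31, adjusted p = 0.00127) and IDP2 (2.35 ± 0.66, adjusted p = 0.00429), 3 of 10 members against 23.6% of all genes. For IDP2 the call was lost when any of 5 of the 14 cultures was left out, namely PKA-AS DMSO culture 3 (0.0123), PKA-AS treated culture 1 (0.0118), PKA-WT DMSO culture 1 (0.0369) and PKA-WT treated cultures 2 (0.0233) and 3 (0.0143). It was also lost in a fit of these groups alone (0.0132) and without the 2017 cultures (0.011). The difference was 0.45 ± 0.87 for PCK1 and -0.96 ± 0.64 for CIT2, and neither passed.

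Loss of Msn2/4 left fewer members past the threshold. In the PKA-AS ΔMsn2/4 strain 3 members rose and 0 fell, against 8.69% of all genes higher and 12.0% lower, with 6 at an unadjusted p under 0.05 and 3 called by DESeq2. The members' median LFC was 1.13 and that of all genes 0.033. MDH2 stood at 40.8, 67.9, 52.3 and 61.1 CPM in DMSO cultures 1 to 4 and at 173, 229, 232 and 266 CPM with 1-NM-PP1. The treated range began far above the highest DMSO culture and ended below the range of the treated strain without deletion, with an LFC of 2.01 ± 0.36 (adjusted p = 1.48e-05). ICL2 went from 27.7, 45.3, 31.1 and 40.7 CPM to 103, 135.5, 61.5 and 85.3 CPM. Culture 3, the lowest of the treated ones, was the library of 188289 counts, and the LFC of 1.43 ± 0.21 (adjusted p = 3.36e-07) was 1.57 without it.

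IDP2 in ΔMsn2/4 went from 13.9, 5.12, 9.26 and 3.54 CPM to 31.2, 35.8, 14.5 and 17.05 CPM. All treated cultures were above the DMSO ones, and the LFC was 1.71 ± 0.45 (adjusted p = 0.00243). The IDP2 call was lost without DMSO culture 2 (0.0144), DMSO culture 4 (0.0146) or treated culture 2 (0.0164), and in a fit of these groups alone (0.0344). CIT2 had 54.7, 34.2, 15.2 and 40.7 CPM in DMSO and 16.2, 26.3, 18.1 and 12.1 CPM with 1-NM-PP1. These overlapped, with an LFC of -0.98 ± 0.43 that did not pass (adjusted p = 0.0874).

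Tested as a difference in response between ΔMsn2/4 and no deletion, 0 members passed in edgeR and 0 in DESeq2, against 8.57% of all genes, with 2 at an unadjusted p under 0.05. These were MDH2, whose response was lower by -1.16 ± 0.49 (adjusted p = 0.119), and ACS1, at -4.60 ± 1.89 from a handful of counts (adjusted p = 0.105). With the replicate number as a block, MDH2 passed (adjusted p = 0.0015).

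In the PKA-AS ΔRph1/Gis1 strain 5 members rose and 1 fell, against 19.8% of all genes higher and 20.5% lower. The members' median LFC was 1.79 and that of all genes 0.088. ICL2 rose from 29.7, 23.4, 30.0 and 32.3 CPM in DMSO cultures 1 to 4 to 105, 117, 116 and 104 CPM, an LFC of 1.94 ± 0.21 (adjusted p = 9.6e-11). MDH2 rose from 60.4, 46.0, 93.7 and 90.3 CPM to 220, 203, 331 and 324 CPM, an LFC of 1.90 ± 0.35 (adjusted p = 1.38e-05). Cultures 3 and 4 were the higher pair of MDH2 under both treatments, and for neither gene did the treatments overlap. CIT2 fell from 53.6, 51.8, 33.3 and 44.8 CPM to 4.89, 9.40, 6.32 and 11.03 CPM, an LFC of -2.56 ± 0.44 (adjusted p = 3.59e-06).

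MLS1 passed in this strain, from 4, 3, 1 and 0 counts in DMSO to 24, 24, 12 and 7 counts, or 4.21 to 10.7 CPM. Each treated culture was above each DMSO culture in CPM, and the LFC was 3.15 ± 0.71 (adjusted p = 0.000238). IDP2 rose from 21.9, 15.8, 10.5 and 13.8 CPM to 49.3, 72.3, 38.6 and 39.9 CPM, an LFC of 1.69 ± 0.41 (adjusted p = 0.000558). ACS1 had 0, 3, 1 and 1 counts in DMSO and 5, 17, 10 and 1 counts after treatment, a ratio of 7.74 with an exact 95% interval from 3.00 to 25.4. Its adjusted p of 0.00952 was just inside the threshold, was 0.0256 in DESeq2 and 0.0112 with no filter, and rose to between 0.0109 (without treated culture 1) and 0.0458 (without treated culture 2) when any culture but treated culture 4 was left out.

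PCK1, FBP1 and SFC1 missed the threshold narrowly in ΔRph1/Gis1. PCK1 stood at 1.04, 4.82, 2.38 and 3.96 CPM in DMSO and 8.001, 8.23, 8.07 and 16.1 CPM after treatment, with treated culture 4 far from the rest and an LFC of 1.60 ± 0.54 (adjusted p = 0.0113). FBP1 had 3, 3, 0 and 0 counts against 6, 12, 10 and 4 counts, a ratio of 6.25 with an exact interval from 2.58 to 18.3 (adjusted p = 0.0137). SFC1 had 4.17, 5.68, 1.43 and 3.96 CPM against 7.11, 9.11, 9.83 and 17.8 CPM (adjusted p = 0.0145). For all 3 genes the treated cultures were above the DMSO ones, and with the replicate number as a block all 3 passed, with adjusted p of 0.00129 for PCK1, 0.00671 for FBP1 and 0.00182 for SFC1. PCK1 also passed in DESeq2 (0.00693), in a fit of these groups alone (0.00867), with only the first library of each culture (0.0017), with the dropped library added (0.00318) and without DMSO culture 2 (0.00816). FBP1 passed in a fit of these groups alone (0.00561) and without DMSO culture 1 (0.00603), and SFC1 with only the first libraries (0.00491).

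The response in ΔRph1/Gis1 differed from that without deletion for 0 members by edgeR and 0 by DESeq2, against 0.398% of all genes, with 1 at an unadjusted p under 0.05. That was MDH2, at -1.28 ± 0.49 (adjusted p = 0.373), which passed with the replicate block (adjusted p = 0.00419).

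With all 4 genes deleted, ICL2 was the member that passed. It went from 38.1, 29.3, 26.3 and 45.8 CPM in DMSO to 109, 104, 87.1 and 110.5 CPM, an LFC of 1.56 ± 0.21 (adjusted p = 4.64e-08). This was 1 of 10 members higher and 0 lower, against 6.90% of all genes higher and 11.8% lower, with 4 at an unadjusted p under 0.05 and 2 called by DESeq2. The members' median LFC was 0.84 and that of all genes 0.026. MDH2 stood at 144, 125, 82.4 and 122 CPM in DMSO and at 181, 186.5, 157 and 223 CPM after treatment. Its DMSO cultures were above those of the other PKA-AS strains except for culture 3, which was inside the ΔRph1/Gis1 range, and its treated cultures were below all those of the strain without deletion. The LFC of MDH2 was 0.66 ± 0.34 and did not pass (adjusted p = 0.153).

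Its response was lower than that without deletion by -2.51 ± 0.49 (adjusted p = 0.000122), 1 of 10 members against 14.7% of all genes, and the call held whichever culture was left out. SFC1 came next. It had 4.31, 5.17, 3.61 and 4.10 CPM in DMSO and 3.00, 7.86, 2.70 and 7.36 CPM after treatment. Treated cultures lay on either side of the DMSO ones, and the difference in response was -2.26 ± 0.78 (adjusted p = 0.0308). It passed with the replicate block (adjusted p = 0.00524) and in a fit of these groups alone (0.00753), and the difference for CIT2 (1.51 ± 0.59, adjusted p = 0.0588) passed with library totals (0.00781). ICL2, in contrast, had a difference in response of -0.13 ± 0.29 (adjusted p = 0.812).

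With the replicate block, 4 members passed for 1-NM-PP1 in this strain, a count for which the share of all genes under the block was not taken. ICL1 (adjusted p = 0.0061), MDH2 (0.0029) and IDP2 (0.00098) joined ICL2. IDP2 went from 20.1, 8.18, 7.21 and 13.7 CPM to 27.7, 24.0, 33.1 and 31.9 CPM, and without the block its adjusted p was 0.0185. It was the second call of DESeq2 (0.00884), and it also passed without DMSO culture 1 (0.00672), in a fit of these groups alone (0.0082) and with library totals (0.000448), as did ICL1 with library totals (0.0012).

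**Figure D2:**
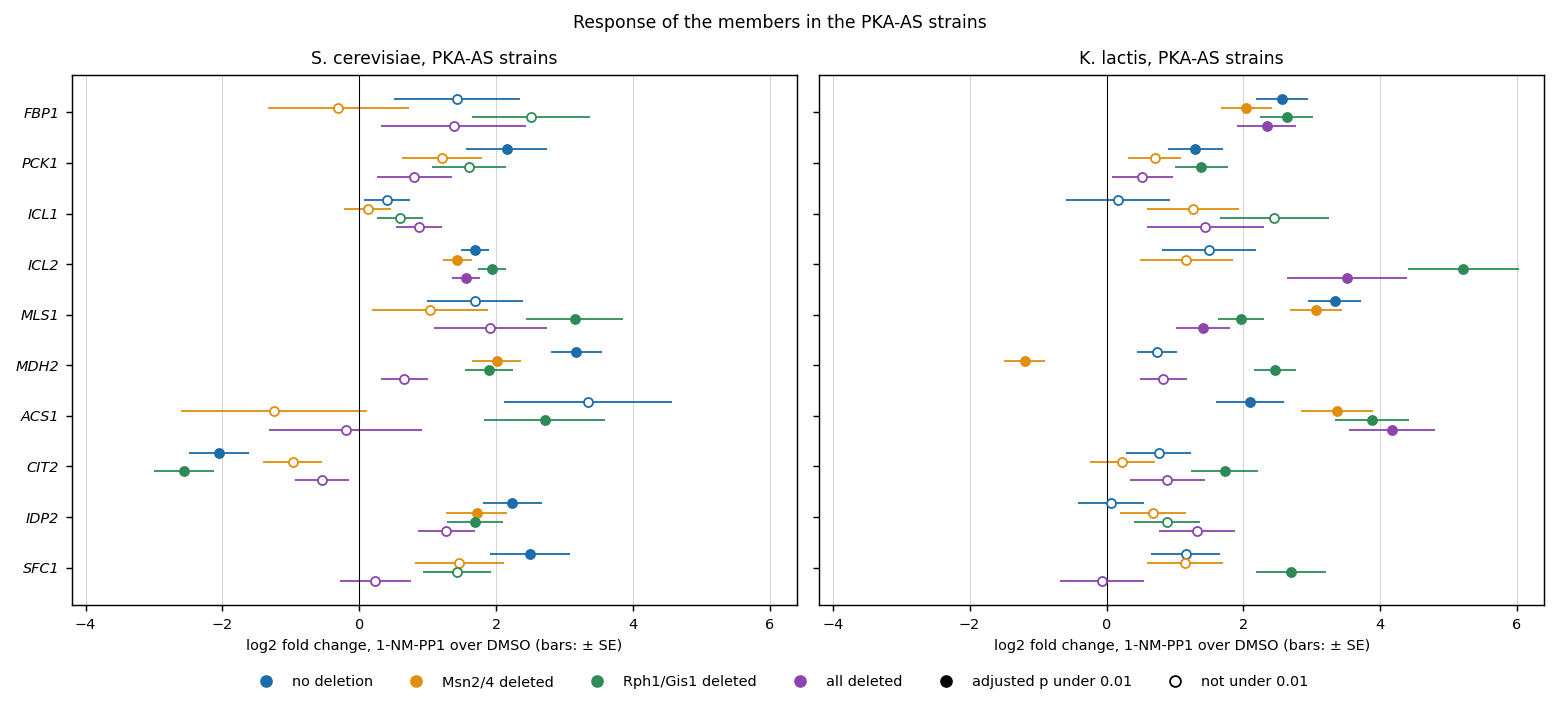
LFC of 1-NM-PP1 against DMSO for the 10 genes in the 4 PKA-AS strains of *S. cerevisiae* and of *K. lactis*, with bars of 1 SE. Filled points passed an adjusted p of 0.01. In *S. cerevisiae* ICL2 is filled in all 4 strains, with LFCs of 1.43 to 1.94, and MDH2 runs from 3.17 without deletion to 0.66 with all 4 genes deleted.

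In DMSO alone, none of the 10 members differed between strains of *S. cerevisiae* at the threshold. In the PKA-AS background 0 were called in ΔMsn2/4 (0.0692% of all genes), ΔRph1/Gis1 (1.25%) or the strain with all 4 deleted (0.917%). In the PKA-WT background 0 were called in the same deletions (0.156%, 0.796% and 0.865%), nor between PKA-AS and PKA-WT without deletion (0% of genes). At an unadjusted p under 0.05 edgeR gave 0, 2, 2, 0, 4, 1 and 1 members in that order, and DESeq2 called 0 in each. The nearest was MDH2 with all 4 genes deleted in PKA-AS, at 119 ± 26.0 CPM against 50.3 ± 11.9 CPM (SD, n = 4), where no cultures overlapped. Its LFC was 1.24 ± 0.35 with an adjusted p of 0.0592. It passed with the replicate label as a block (adjusted p = 0.00473), though that label does not pair cultures of different strains.

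Levels in *K. lactis* come from a table normalized on its own and are not compared with those of *S. cerevisiae*. In the PKA-AS strain without deletion FBP1, MLS1, ACS1 and PCK1 rose, 4 of 10 members against 21.1% of all 5271 tested genes, and 0 fell, against 24.1%. The members' median LFC was 1.23 and that of all genes -0.042, with 7 members at an unadjusted p under 0.05 and 4 called by DESeq2.

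FBP1 (KLLA0E01211g), at or near the counting floor in *S. cerevisiae*, stood at 153, 171, 343 and 185 CPM in DMSO cultures 1, 2, 3 and 2017 of *K. lactis*. With 1-NM-PP1 it stood at 1203, 1134, 1716 and 979 CPM. Culture 3 was the highest under both treatments, the groups were far apart, and the LFC was 2.57 ± 0.38 (SE, n = 4), with an adjusted p of 1.04e-06. PCK1 (KLLA0A00484g) had 9.67, 15.6, 7.53 and 15.0 CPM in DMSO and 15.0, 33.1, 22.6 and 46.0 CPM after treatment. The groups overlapped at about the same level of 15 CPM, and the LFC was 1.30 ± 0.40 (adjusted p = 0.00689). The PCK1 call was lost without DMSO culture 1 (0.0265), DMSO culture 3 (0.0246), treated culture 2 (0.0172) or the treated 2017 culture (0.0319), without both 2017 cultures (0.0324), and with library totals as scaling (0.0126).

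MLS1 (KLLA0F23914g) went from 3.87, 3.59, 3.01 and 7.31 CPM to 33.3, 47.6, 46.7 and 59.99 CPM. The lowest treated culture was over 4 times the highest DMSO culture, with an LFC of 3.33 ± 0.38 (adjusted p = 9.56e-09). ACS1 (KLLA0A03333g) went from 22.6, 31.1, 105 and 90.5 CPM to 268, 221, 358 and 214 CPM. DMSO cultures 3 and 2017 were several times the other pair, all treated cultures were higher still, and the LFC was 2.10 ± 0.50 (adjusted p = 0.000675). MDH2 (KLLA0E07525g) had 51.9, 66.4, 70.03 and 79.7 CPM in DMSO and 84.9, 86.9, 127 and 148 CPM after treatment. Here too the groups did not overlap, but the LFC of 0.74 ± 0.29 did not pass (adjusted p = 0.0317).

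The row shared by CIT2 and CIT1 (KLLA0F12760g) was the most abundant member, at 593, 353, 2242 and 645 CPM in DMSO and 2126, 878, 2567 and 925 CPM after treatment. DMSO culture 3 lay inside the treated range, and the LFC was 0.76 ± 0.48 (adjusted p = 0.178). It passed with the replicate block (adjusted p = 0.00279) and without DMSO culture 3 (0.00398). The row shared by IDP2 and IDP3 (KLLA0F12342g) had 101 to 176.5 CPM in DMSO and 96.6 to 243 CPM after treatment, an LFC of 0.06 ± 0.48. ICL2 (KLLA0E13905g) had 1, 4, 4 and 13 counts in DMSO and 12, 16, 6 and 47 counts after treatment, and did not pass (adjusted p = 0.0644), though it did with the replicate block (0.00761). ICL1 (KLLA0C08107g) had 1 to 11 counts in DMSO and 1 to 9 counts after treatment, so that a change was not detectable at this depth. SFC1 (KLLA0F03212g) had 2.39 to 4.52 CPM and 4.24 to 14.4 CPM (adjusted p = 0.0516).

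**Figure D3:**
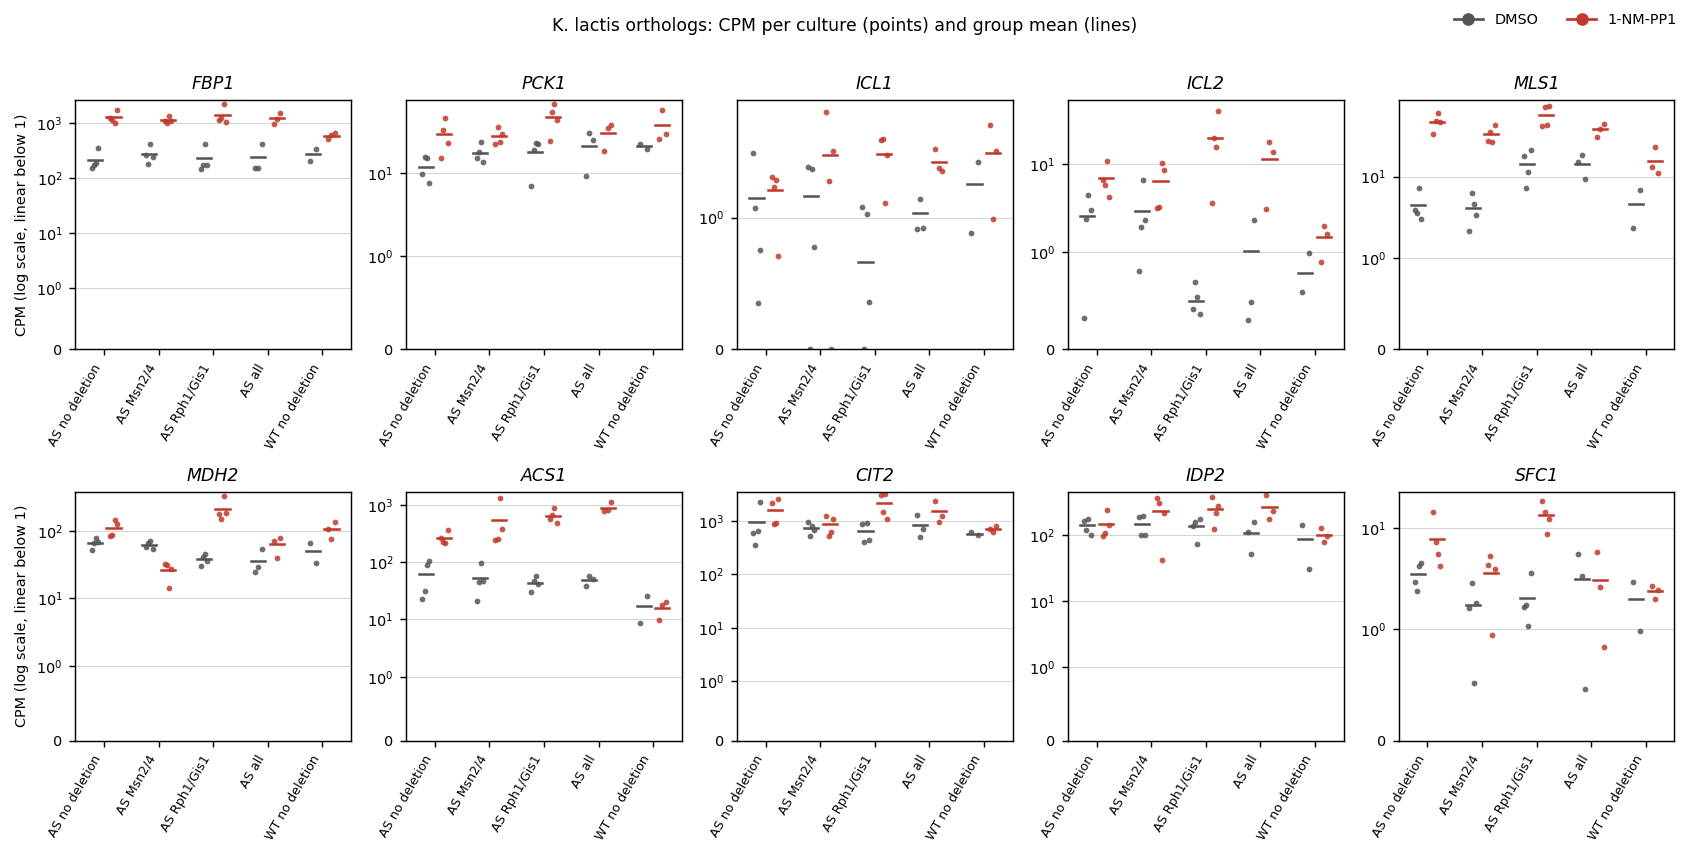
CPM of the 10 orthologs in each *K. lactis* culture, by strain, on a log axis that is linear below 1. Points are cultures, the short line is the group mean, DMSO is grey and 1-NM-PP1 red. FBP1 is between 979 and 1716 CPM in treated PKA-AS cultures without deletion and between 153 and 343 in DMSO, while ICL1 stays at a few CPM in all groups.

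Without the *K. lactis* MSN2/4 ortholog, FBP1, MLS1 and ACS1 rose and MDH2 fell, 3 members against 19.7% of all genes higher and 1 against 22.7% lower. FBP1 went from 266, 177, 418 and 236 CPM in DMSO cultures 1 to 4 to 1098, 1015, 1308 and 1098 CPM, an LFC of 2.04 ± 0.37. MLS1 went from 2.15, 6.20, 4.65 and 3.38 CPM to 27.3, 34.8, 26.6 and 42.8 CPM, an LFC of 3.07 ± 0.38. Neither gene had overlapping groups. ACS1 went from 21.3, 45.3, 97.1 and 47.3 CPM to 239, 250, 1313 and 374 CPM, with culture 3 the highest under both treatments and an LFC of 3.37 ± 0.53. MDH2 fell from 57.6, 66.3, 70.3 and 54.6 CPM to 32.7, 31.9, 14.2 and 27.5 CPM. The highest treated culture was below the lowest DMSO culture, with an LFC of -1.20 ± 0.30 (adjusted p = 0.00123).

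The response of MDH2 was lower than without deletion by -1.94 ± 0.42, at an unadjusted p of 6.68e-05. It did not pass in edgeR (adjusted p = 0.0503) and passed in DESeq2 (adjusted p = 0.0026). No member passed in edgeR for this difference, against 0.0379% of all genes, with 1 at an unadjusted p under 0.05.

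Without the RPH1/GIS1 ortholog 8 members rose and 0 fell, against 18.7% of all genes higher and 22.8% lower, with 9 called by DESeq2. The members' median LFC was 2.46 and that of all genes 0.014. MDH2 went from 30.0, 41.1, 45.6 and 36.4 CPM in DMSO cultures 1 to 4 to 180, 151, 330 and 185 CPM, an LFC of 2.46 ± 0.31 (adjusted p = 5.17e-08). ICL2 went from 1, 2, 1 and 1 counts to 12, 39, 24 and 146 counts, a ratio of 42.7. Its exact 95% interval from 18.04 to 133 covers counting error only, while the treated cultures were far apart. In CPM, all treated cultures of MDH2 and 3 of 4 of ICL2 were above every treated culture of the strain without deletion. ACS1 went from 30.0, 46.2, 57.5 and 41.8 CPM to 554, 668, 878 and 487 CPM, an LFC of 3.88 ± 0.54 (adjusted p = 3.55e-07). FBP1 went from 142, 175, 420 and 173 CPM to 1109, 1239, 2245 and 1041 CPM, an LFC of 2.63 ± 0.38. Culture 3 was again the highest for FBP1 under both treatments.

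MLS1 rose from 18.05, 7.24, 11.3 and 21.1 CPM to 41.4, 70.05, 42.65 and 71.9 CPM, an LFC of 1.97 ± 0.34. SFC1 rose from 1.64, 1.725, 1.07 and 3.57 CPM to 18.6, 14.3, 8.66 and 12.4 CPM, an LFC of 2.70 ± 0.51. For both the treated cultures were all above the DMSO ones. PCK1 rose from 6.97, 19.0, 23.1 and 22.1 CPM to 24.3, 53.7, 66.6 and 43.1 CPM (LFC 1.39 ± 0.39), and its call was lost without DMSO culture 1 (0.0199), treated culture 2 (0.0101) or treated culture 3 (0.0176), and with library totals (0.012). The CIT2/CIT1 row rose from 409 to 903 CPM in DMSO to 1069 to 3151 CPM (LFC 1.73 ± 0.49), and its call was lost without DMSO culture 2 (0.0174), DMSO culture 4 (0.0165), treated culture 1 (0.0139) or treated culture 3 (0.0159). ICL1 had 3, 0, 2 and 1 counts in DMSO and 15, 9, 2 and 12 counts after treatment, and just missed the threshold (adjusted p = 0.0105, or 0.00573 in DESeq2, 0.0089 with no filter, 0.0055 in a fit of these groups alone and 0.0074 without treated culture 3).

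Compared with the response without deletion, 0 members passed in edgeR without the RPH1/GIS1 ortholog, against 0.360% of all genes. At an unadjusted p under 0.05 there were 6, a count whose share of all genes was not taken. DESeq2 called 1. That was MDH2, whose response was higher by 1.72 ± 0.42 (adjusted p = 0.0386 in edgeR, 0.00297 in DESeq2 and 0.00972 with the replicate block). ICL2 had a difference of 3.71 ± 1.13 (adjusted p = 0.169), and MLS1 one of -1.37 ± 0.50 (adjusted p = 0.372).

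Without both orthologs FBP1, ACS1, ICL2 and MLS1 rose, 4 members against 12.5% of all genes higher, and 0 fell, against 19.6%. ACS1 went from 38.7, 57.3 and 51.7 CPM in DMSO cultures 1 to 3 to 767, 799 and 1098 CPM, an LFC of 4.18 ± 0.63 (n = 3, adjusted p = 2.25e-06). FBP1 went from 152, 149 and 417 CPM to 936, 1189 and 1506 CPM, an LFC of 2.34 ± 0.44. The treatments did not overlap for either gene. ICL2 went from 1, 1 and 5 counts to 8, 41 and 33 counts, and MLS1 from 14.9, 18.3 and 9.23 CPM to 30.7, 38.3 and 44.2 CPM. Both calls rested on single cultures. For ICL2 (adjusted p = 0.0015) the call was lost without DMSO culture 1 (0.0168), DMSO culture 2 (0.0105) or treated culture 2 (0.0108), and in a fit of these groups alone (0.0149). For MLS1 (adjusted p = 0.00396) it was lost without DMSO culture 1 (0.0134), DMSO culture 3 (0.0274), treated culture 2 (0.0109) or treated culture 3 (0.0193), and in the fit of these groups alone (0.0137).

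MDH2 in this strain had 25.0, 29.4 and 54.0 CPM in DMSO and 71.3, 40.1 and 80.1 CPM after treatment. Treated culture 2 was below DMSO culture 3, and the LFC of 0.83 ± 0.34 did not pass (adjusted p = 0.051), though it did without DMSO culture 3 (0.00862). No member's response differed from that without deletion in edgeR or DESeq2, against 1.04% of all genes, with 2 at an unadjusted p under 0.05, namely MLS1 (-1.92 ± 0.54, adjusted p = 0.0497) and ACS1 (2.08 ± 0.74, adjusted p = 0.168).

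In *K. lactis* PKA-WT cultures 0 members were called for 1-NM-PP1 by edgeR, against 6.15% of all genes, with 3 at an unadjusted p under 0.05 and 1 called by DESeq2. MLS1, the call of DESeq2 (adjusted p = 0.00865), had 2.35 and 6.89 CPM in the 2 DMSO cultures and 12.96, 22.8 and 10.9 CPM in the 3 treated ones. The treated cultures were higher, with an LFC of 1.93 ± 0.56 (adjusted p = 0.0183 in edgeR, and 0.0096 without DMSO culture 2). FBP1 had 202 and 332 CPM against 510, 592 and 657 CPM, also without overlap, and an LFC of 1.14 ± 0.48 that did not pass (adjusted p = 0.113). ACS1 had 8.51 and 25.6 CPM against 9.83, 17.8 and 20.2 CPM, which overlap. The response in PKA-AS exceeded that in PKA-WT at the threshold for 0 members by edgeR and 0 by DESeq2, against 11.4% of all genes, with 3 at an unadjusted p under 0.05. FBP1 (1.43 ± 0.59) and ACS1 (2.12 ± 0.86) had adjusted p of 0.0849 and 0.0792, and both passed with the replicate block (0.0057 and 0.00517).

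In DMSO, 0 *K. lactis* members were called by edgeR without the MSN2/4 ortholog (0% of all genes), the RPH1/GIS1 ortholog (1.82%) or both (1.57%), nor between PKA-AS and PKA-WT (0%), with 0, 3, 2 and 1 at an unadjusted p under 0.05. DESeq2 called 0, 1, 1 and 0. Its call was MLS1, whose DMSO level was 14.4 CPM without the RPH1/GIS1 ortholog and 4.45 CPM with no deletion. The LFC was 1.63 ± 0.38 (adjusted p = 0.0103), and 1.60 ± 0.41 without both orthologs (adjusted p = 0.0195). Both passed with the replicate label as a block (0.00301 and 0.00273), though that label does not pair cultures of different strains. The first also passed without DMSO culture 2 of that strain (0.00394) or without the 2017 DMSO culture of the strain with no deletion (0.00731), and without both 2017 cultures (0.0099).

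The species were compared by the change within each culture pair, treated minus DMSO on the log2 CPM scale with a prior count of 2, in the PKA-AS strains without deletion (4 pairs each). With 4 against 4 pairs the smallest two-sided p of the exact permutation test is 0.0286. FBP1, MLS1, MDH2, CIT2 and IDP2 reached it, with no overlap between the species, and after adjustment over the 10 genes each had a p of 0.0571, so that 0 of 10 passed 0.05. The change was larger in *K. lactis* for MLS1 (3.22 ± 0.39 against 1.22 ± 0.44, SD) and for FBP1 (2.60 ± 0.30 against 0.95 ± 1.41). It was larger in *S. cerevisiae* for MDH2 (3.14 ± 0.34 against 0.71 ± 0.23) and for IDP2 (2.16 ± 0.27 against 0.00 ± 0.61 for the IDP2/IDP3 row). CIT2 was on opposite sides, at -1.95 ± 0.61 in *S. cerevisiae* and 0.97 ± 0.75 for the CIT2/CIT1 row. PCK1 (p = 0.0857, exact permutation test), SFC1 (p = 0.143), ACS1 (p = 0.171), ICL2 (p = 0.514) and ICL1 (p = 0.829) did not reach the smallest p. For FBP1 the highest *S. cerevisiae* pair (culture 2, 2.311) was just below the lowest *K. lactis* pair (culture 3, 2.322), and its *S. cerevisiae* cultures held 0 to 7 counts. The prior count pulls the change of the scarcest genes, FBP1, ACS1 and MLS1 in *S. cerevisiae*, toward 0. These changes were not set against those of PKA-WT pairs. In PKA-WT without deletion MLS1 changed by 2.13 and 1.62 in *K. lactis* and by 0.366, 0.566 and -0.758 in *S. cerevisiae*. FBP1 changed there by 1.33 and 0.835, and by 0.800, 0.996 and 0.585. How far effects of the compound without PKA inhibition enter the species differences was not tested.

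**Figure D4:**
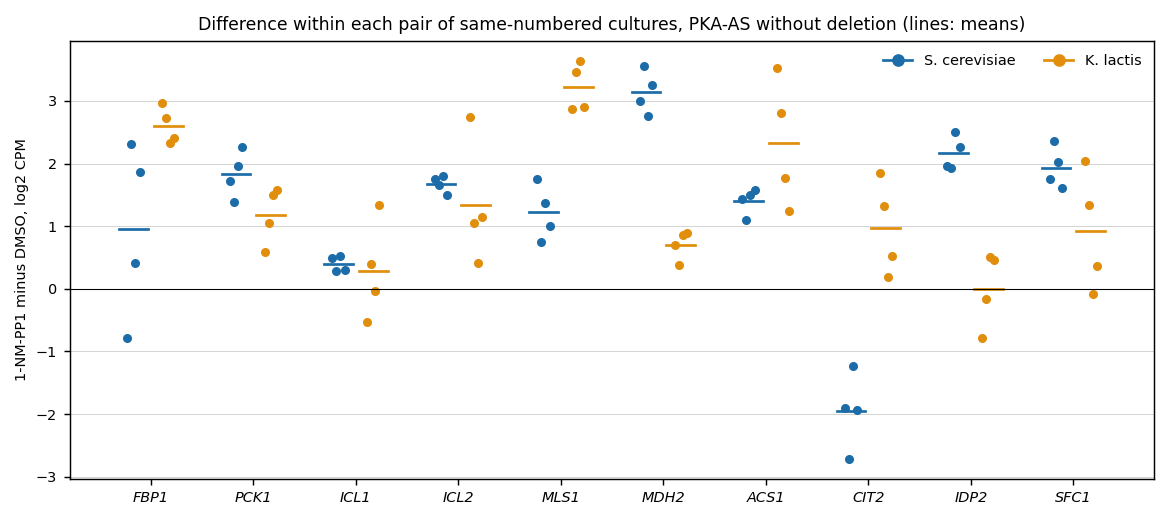
Change in log2 CPM (1-NM-PP1 minus DMSO) for each culture pair of the PKA-AS strains without deletion, *S. cerevisiae* in blue and *K. lactis* in orange, with the mean of 4 pairs as a line. The species are apart for MDH2 (means 3.14 and 0.71), MLS1 (1.22 and 3.22) and CIT2 (-1.95 and 0.97) and mix for PCK1, ICL1 and ICL2.

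Other genes of the same metabolism were read from lists that were chosen with earlier results of these data known. The genes named from them are those with the largest called changes in *S. cerevisiae* PKA-AS without deletion. Counts of each list stand against 20.7% of all genes higher and 21.2% lower in that strain. They are a description, and no list was tested as a set. Of 11 other isozymes of these reactions, 4 rose and 2 fell (median LFC 0.46). CIT1, the mitochondrial citrate synthase, rose with an LFC of 2.32 ± 0.39 while its ohnolog CIT2 fell, and the aconitase ACO1 rose by 1.74 ± 0.29. ACS2, the acetyl-CoA synthetase of glucose-grown cells, fell with an LFC of -1.01 ± 0.17. Of 7 glycolytic counterparts 3 rose and 1 fell (median -0.07). PFK26 and PFK27, which both make fructose 2,6-bisphosphate, went opposite ways, at 3.26 ± 0.21 and -2.37 ± 0.44, and the minor pyruvate kinase PYK2 rose by 2.49 ± 0.72.

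Of 10 genes of the GID ubiquitin ligase, which marks gluconeogenic enzymes such as Fbp1 for degradation when glucose returns, 9 rose and 0 fell (median 2.35). Among them were YGR066C (GID10), with 0 counts in DMSO and 50 after treatment, at least 4.00-fold above the floor of 3 counts per library, and YLR149C (GID11), with 8 and 593 counts, a ratio of 80.4 (exact 95% interval 40.5 to 187). In ΔMsn2/4 7 of the 10 rose, in ΔRph1/Gis1 6, and with all 4 genes deleted 1, while the share of all genes higher was 8.69%, 19.8% and 6.90%. In DMSO, against no deletion, 0, 2 and 3 of the 10 were already called higher in these strains. Their median LFCs there were 0.195, 1.121 and 1.037. Of all genes 0.0692%, 1.25% and 0.917% were called in either direction. The part of the DMSO level in the smaller counts was not tested. Of 15 regulators of carbon source genes 6 rose and 1 fell (median 0.75). CAT8 itself went from 3.48 to 102 CPM, an LFC of 4.85 ± 0.42 (adjusted p = 1.47e-13), and SIP4 from 1 to 24 counts in all, a ratio of 26.0 with an exact interval from 4.24 to 1070. MIG2, a repressor of glucose-repressed genes, fell with an LFC of -2.99 ± 0.29.

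Of 8 transport and acetyl transfer genes 3 rose and 0 fell (median 1.36), among them the carnitine acetyltransferase CAT2 (3.44 ± 0.66) and ACH1 (2.95 ± 0.19), a mitochondrial CoA transferase for acetate. Of 11 beta-oxidation genes 8 rose and 0 fell (median 2.66). The thiolase POT1 went from 10 to 5298 counts, a ratio of 575 (exact 95% interval 312 to 1199), and SPS19 rose by 4.63 ± 0.62. Of 7 genes of the retrograde pathway, to which CIT2 belongs as a target, 0 rose and 1 fell (median -0.05), DLD3, at 36.2 CPM in DMSO and 0.873 CPM after treatment (LFC -5.24 ± 0.98).

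In *K. lactis* PKA-AS without deletion the same lists, against 21.1% of all genes higher and 24.1% lower, gave 1 of 10 isozymes higher and 2 lower (median -0.02, with the CIT2/CIT1 and IDP2/IDP3 rows among them), 2 of 6 glycolytic counterparts higher and 1 lower (0.35), 8 of 9 GID genes higher (2.51), 3 of 11 regulators higher (0.27), 3 of 7 transport genes higher and 1 lower (1.30), 9 of 10 beta-oxidation genes higher (3.02) and 2 of 7 retrograde genes higher (0.67). The CAT8 ortholog stood at 123 CPM in DMSO and 145 CPM after treatment and did not pass (LFC 0.24 ± 0.32, adjusted p = 0.548), while SIP4 went from 5 to 68 counts, a ratio of 11.9 (exact 95% interval 4.85 to 37.8).

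The genes most like 4 of the members in *S. cerevisiae* were found by Pearson's r of log2 CPM over the 56 cultures and 4942 genes. The cultures share strains, treatments and depth, so r is a description. PCK1 was closest to ECM27 (0.859), GYP7 (0.768) and PAU23 (0.737). MLS1 was closest to SNF3 (0.834), NNK1 (0.807) and NTH2 (0.800). ICL1 was closest to BOS1 (0.856), GRX7 (0.839) and CDC24 (0.838). FBP1, at a mean of 2.30 counts per culture, was closest to PAU23 (0.616), DMC1 (0.594) and HEL1 (0.590). Candidates were genes with a mean of at least 10 counts, so scarce members such as FBP1 and MLS1 (mean 3.98) could not be found. None of the genes named was another member.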

How the data were processed

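Libraries of 3′ tags (Lexogen QuantSeq FWD) were made from total RNA of 56 *S. cerevisiae* and 35 *K. lactis* cultures. The deposited values are raw counts per gene: the authors trimmed and aligned reads in the Bluebee pipeline on R64 and ASM241v1, and counted them again with HTSeq on annotations with 3′ extensions, the HTSeq version not being given in the sources used here. The deposited name column gave gene names and orthologs, and the tables of the authors' own comparisons (fold changes and p-values) and of rlog means were not used. Reads were not collapsed to molecules, so counting intervals cover counting error only.

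Repeat libraries of a culture were summed, and 1 library the authors dropped was left out. Genes reaching 2 counts in 3 or more samples (5779 and 5271) were fitted per species in edgeR 4.0.16 (R 4.3.3, limma 3.58.1) with TMM scaling, 1 group factor over all cultures and the quasi-likelihood test, p-values being adjusted (Benjamini-Hochberg) over all tested genes with a threshold of 0.01. Standard errors are |LFC| divided by the square root of F, and log2 CPM used a prior count of 2. Steps were tested on simulated data. Alternatives were DESeq2 1.42.0, library totals as scaling, no filter, only the groups compared, a replicate block, leaving out the 2017 cultures, using the first library of a culture, adding the dropped library, a prior count of 0.5, a window of 250 bases, and leaving out each culture. The members and lists were chosen with earlier results of these data known, and all 10 members were examined in every comparison. Shares of all genes are those of the main edgeR fit. Counts of members at an unadjusted p under 0.05, by DESeq2 or with the block have no such share beside them. From each other list up to 2 called genes with the largest rise and 2 with the largest fall are named, except for an item that is not reported here.

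Cultures with the same label were taken as paired, because the protocol says that each culture was divided before treatment. For strains compared in DMSO the block was the replicate label shared by all strains, and the division of a culture does not pair those. Deviations from the group means correlated over 0.1 in 24 of 28 *S. cerevisiae* pairs of groups and 13 of 17 *K. lactis* ones, and blocked values are given where they change a call. In a minority of pairs a culture with another label correlated more. In PKA-AS without deletion this held for *S. cerevisiae* culture 2 (0.259 against 0.729) and *K. lactis* culture 1 (-0.0797 against 0.506). Whether replicates came from separate starter cultures is not stated in the labels, so p-values measure only the spread between these samples, which may be technical. Gene names matched on the file's name column, and RPH1 by its systematic name through the RefSeq table for R64. Sequences are from RefSeq's R64 genome.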

Additional observations from a re-analysis of the deposited data

Results flagged for a closer look

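In 99 groups of 4 cultures with a mean of at least 10 counts, 6 held a culture that stood apart from the other 3 by Dixon's criterion, where chance gives about 1 in 20. In *S. cerevisiae* this was PCK1 in treated culture 4 of the PKA-AS ΔRph1/Gis1 strain, at 16.1 CPM with the others at 8.001 to 8.23.

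The other 5 were replicate 3 cultures of *K. lactis* PKA-AS strains. FBP1 was at 343 CPM in DMSO without deletion (others 153 to 185), and without the RPH1/GIS1 ortholog at 420 CPM in DMSO (142 to 175) and 2245 CPM with 1-NM-PP1 (1041 to 1239). The CIT2/CIT1 row was at 2242 CPM in DMSO without deletion (353 to 645), and ACS1 at 1313 CPM in treated cells without the MSN2/4 ortholog (239 to 374).

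Responses to 1-NM-PP1 that differed between strains were those of MDH2 with all 4 genes deleted against no deletion (-2.51), and of MDH2 (4.20), IDP2 (2.35) and ICL2 (1.26) in *S. cerevisiae* PKA-AS against PKA-WT.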

How the results depend on the processing

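Values of single members were counted for the response to 1-NM-PP1 in each strain and for the called differences in response. Across the alternatives other than leaving out a culture, 679 of them kept their direction and their side of the threshold. Of the rest 24 passed it newly and 11 lost it, and no called value changed sign. The other differences in response and the DMSO comparisons are not in these counts, and their gained calls are given with each strain. Library totals in place of TMM moved the median LFC of all genes by up to 0.473 (*S. cerevisiae* PKA-AS ΔMsn2/4), and the causes of the changes were not tested. For 1-NM-PP1 in *S. cerevisiae* PKA-AS with all 4 genes deleted the count of 1 member became 2 with DESeq2, 3 with library totals, 2 with only the groups compared and 4 with the replicate block. In PKA-WT ΔRph1/Gis1 it went from 0 to 1 with library totals (ICL2). For the difference in response, 0 became 1 with the replicate block in ΔMsn2/4 and in ΔRph1/Gis1, and 1 became 2 with all 4 genes deleted under library totals, only the groups compared and the block. In DMSO with all 4 genes deleted 0 became 1 with the block.

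In *K. lactis* the count without both orthologs fell from 4 to 2 with only the groups compared, and 0 became 1 in PKA-WT with DESeq2. The difference in response went from 0 to 1 without the MSN2/4 ortholog with DESeq2, from 0 to 1 without the RPH1/GIS1 ortholog with DESeq2 and with the block, and from 0 to 2 between PKA-AS and PKA-WT with the block. In DMSO 0 became 1 without the RPH1/GIS1 ortholog with DESeq2, the block or no 2017 cultures, and without both with DESeq2 or the block. With the block, the other counts stayed within 1.5 times, and the single members that changed are given in the report.

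Leaving out single cultures gave ranges of 5 to 6 called members in *S. cerevisiae* PKA-AS without deletion, 2 to 3 in ΔMsn2/4, 5 to 6 in ΔRph1/Gis1 and 1 to 2 with all 4 deleted (2 without DMSO culture 1), and 2 to 3 for PKA-AS against PKA-WT. In *K. lactis* they were 3 to 4, 4 to 4, 7 to 8 and 2 to 4 in the same order, 2 without DMSO culture 1 or treated culture 2 of the last, 0 to 1 in PKA-WT and 0 to 1 in DMSO without the RPH1/GIS1 ortholog. With a 250-base window CCCCT matched in 2 members in place of 6, and CCNNNNNNCCG in 1 in place of 8. The species test without the 2017 cultures could not pass, since 3 against 3 pairs allow no p below 0.1. Depth limits FBP1, MLS1 and ACS1 in *S. cerevisiae* and ICL1 in *K. lactis*, whose DMSO cultures held 0 to 15 counts. It also limits ICL2 and SFC1 in *K. lactis*, whose DMSO cultures held 1 to 13 and 1 to 18 counts.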
